A study of Mus musculus with 15 samples.

Results

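The 9 genes described here encode complement component C3, parts of the routes that activate it, the C1 inhibitor and the receptors for the peptides released from C3 and C5. They are C1ra, C4b, C2, Serping1, C3, Cfb, Cfp, C3ar1 and C5ar1, picked by symbol from a count table of 47729 annotated features. They were selected on earlier results of the same comparison of labels, so their differences between the labels are a description. Where calls from the fit over all genes are counted for them, the counts are no evidence about these genes. The RNA came from macrophages sorted from the aorta as F4/80+ CD64+ cells, and each library was labelled Olfr2+ or Olfr2- for the olfactory receptor by which the cells were divided. All animals were female Apoe-/- mice, which lack apolipoprotein E and develop atherosclerosis (the genotype field reads Apoe dko), fed a high fat (Western) diet for 4 weeks, so no group with intact Apoe and no group on another diet entered the comparison. The age of the mice is not given in the sources used here. The labels describe the sorts as technical replicates of 100 to 200 cells from the pooled aortas of 4 mice. Since the numbered samples are not said to be separate animals, every p-value here reflects variation among these sorts alone, and that variation may be technical.

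There were 5 columns of counts labelled Olfr2- (samples 1, 3 and 4) and 10 labelled Olfr2+ (samples 2, 3 and 4), each letter being a repeat of a numbered sample. The columns parted by depth: 7 Olfr2+ columns (all 4 of sample 2 and 3A to 3C) totalled 76.0 to 95.6 M counts (M, 1000000), whereas the Olfr2+ columns 3D, 4A and 4B totalled 29.9 to 37.6 M and the Olfr2- columns 30.5 to 53.2 M. The share of counts on protein-coding genes was 94.6 to 97.5% for the deeper set, 78.5 to 80.4% for the 3 other Olfr2+ columns and 79.5 to 85.6% for the Olfr2- columns. Because every deeper column is labelled Olfr2+, depth set and label cannot be told apart within them, and the levels and fold changes are given with and without these columns. The Olfr2 transcript ran against the sort, with 34 to 76 counts per summed Olfr2- sample and 1 to 9 counts per summed Olfr2+ sample. Of the genes behind the gate, Adgre1 (F4/80) was at 9.48 to 312 CPM (counts per 1000000 of the column total) over the 15 columns and Fcgr1 (CD64) at 0.544 to 103 CPM.

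Complement is a cascade of plasma proteins, largely supplied by the liver but also made in tissues by macrophages and stromal cells. The classical route begins at the C1 complex of C1q with the proteases C1r and C1s. Within it C1r activates C1s, and C1s cleaves C4 and C2 into a convertase that cuts C3. The alternative route builds another C3 convertase from C3 itself and factor B, held together by properdin. Cleavage of C3 and C5 releases the anaphylatoxins C3a and C5a, which act on G protein-coupled receptors of myeloid cells. In atherosclerotic arteries complement proteins are found in the plaque, and C3 fragments mark lipoproteins and dying cells for uptake.

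Upstream sequences are shown for C3 and C1ra, whose levels shifted together between the depth sets, and for the receptor genes C3ar1 and C5ar1, whose levels did not follow them from column to column. RefSeq promoter windows of build GRCm38.p6 matched 5 of the 9 genes, these 4 and Cfp; Serping1, C4b, C2 and Cfb are named only. Each window holds the 250 bases before the gene's start, written 5′ to 3′ on the gene's strand, at chr17:57228137-57228386 (- strand) for C3, chr6:124512371-124512620 (+ strand) for C1ra, chr6:122856158-122856407 (- strand) for C3ar1 and chr7:16259339-16259588 (- strand) for C5ar1. Capitals mark a match, on either strand, to 1 of 4 motifs of factors active in inflammation: TTCNNNGAA (STAT), GAAANNGAA (interferon response element), GGGNNTTTC (a form of the NF-kB site) and TTGCNNAA (a loose C/EBP site).
C3: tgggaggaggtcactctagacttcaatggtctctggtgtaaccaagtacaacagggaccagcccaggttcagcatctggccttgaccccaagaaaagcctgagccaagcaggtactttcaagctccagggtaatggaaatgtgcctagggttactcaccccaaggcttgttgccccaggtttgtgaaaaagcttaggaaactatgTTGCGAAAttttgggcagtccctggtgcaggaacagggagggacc
C1ra: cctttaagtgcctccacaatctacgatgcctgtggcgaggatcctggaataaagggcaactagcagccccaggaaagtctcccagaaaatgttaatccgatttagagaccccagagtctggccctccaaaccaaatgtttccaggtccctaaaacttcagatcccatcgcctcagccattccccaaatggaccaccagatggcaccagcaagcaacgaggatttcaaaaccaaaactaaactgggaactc
C3ar1: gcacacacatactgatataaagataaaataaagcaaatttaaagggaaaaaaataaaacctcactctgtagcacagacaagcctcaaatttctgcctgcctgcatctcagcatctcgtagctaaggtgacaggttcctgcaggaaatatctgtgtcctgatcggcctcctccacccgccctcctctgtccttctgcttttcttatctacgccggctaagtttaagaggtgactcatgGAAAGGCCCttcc
C5ar1: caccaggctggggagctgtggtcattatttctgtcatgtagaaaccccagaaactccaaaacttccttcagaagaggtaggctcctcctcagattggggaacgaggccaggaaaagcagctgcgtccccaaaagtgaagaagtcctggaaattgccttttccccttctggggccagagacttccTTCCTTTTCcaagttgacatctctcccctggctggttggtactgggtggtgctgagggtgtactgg
C3 held TTGCGAAA, a match to the C/EBP letters, 45 to 38 bases before the start. C3ar1 held GAAAGGCCC, a match to GGGNNTTTC on the opposite strand, 13 to 5 bases before the start. C5ar1 held TTCCTTTTC, a match to GAAANNGAA on the opposite strand, 66 to 58 bases before the start. No motif overlapped another in these windows, and C1ra and Cfp held none of the 4. Of 32851 RefSeq windows of the same length, 7.02% held TTCNNNGAA, 7.13% GAAANNGAA, 3.72% GGGNNTTTC and 9.56% TTGCNNAA. A match is a description of the letters and not a binding site. The coordinates belong to GRCm38.p6, whereas the submitters' processing notes name GRCm39 for the counts.

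The genes of the classical route and C3 itself fell into the same 2 levels. In the 7 deeper Olfr2+ columns C1ra, C4b, C2, Serping1 and C3 were each higher than in all 8 other columns, and in the 3 remaining Olfr2+ columns they lay near the Olfr2- columns. Such a gap between the 7 and the 8 columns was found for 1.41% of the 24362 genes tested. The properdin gene Cfp differed less, factor B (Cfb) was scarce in most columns, and the receptors C3ar1 and C5ar1 varied widely within the deeper set. Summed over the 9 genes, the level was 662 to 1026 CPM in the Olfr2- columns, 793 to 1202 CPM in the Olfr2+ columns below 60 M counts and 12800.5 to 15125 CPM in the deeper ones. In bulk RNA, fewer cells of a type and less RNA per cell cannot be told apart.

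**Figure D1:**
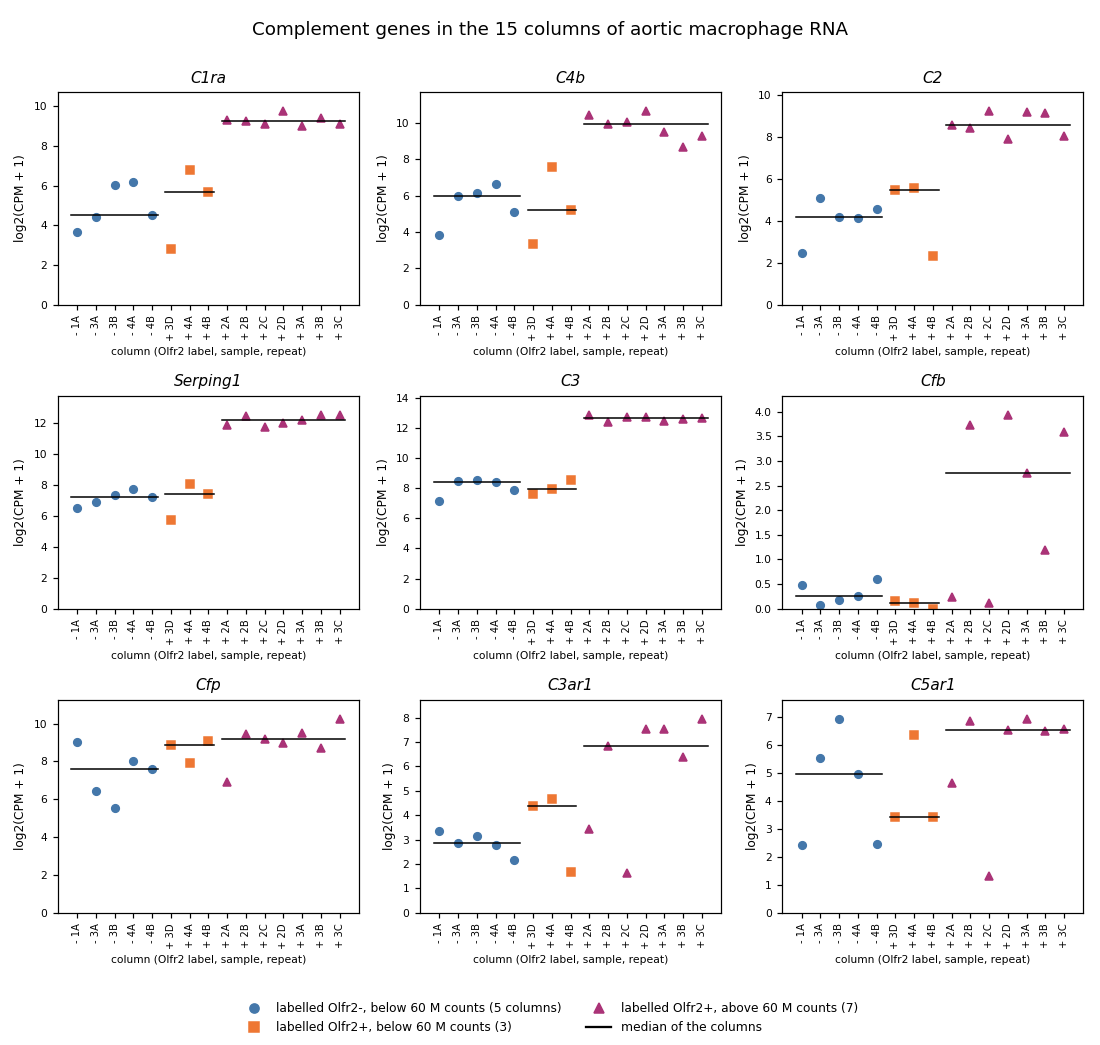
Level of each of the 9 complement genes, as log2(CPM + 1), in the 15 columns, with the label, sample number and repeat letter on the horizontal axis. Circles are Olfr2- columns, squares the 3 Olfr2+ columns below 60 M counts and triangles the 7 above, with a line at the median of each; for C1ra, C4b, C2, Serping1 and C3 all triangles lie above all other points, and for Cfb, Cfp, C3ar1 and C5ar1 the sets overlap.

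C1ra (ENSMUSG00000055172.10, chromosome 6) encodes C1r, the protease that activates C1s within the C1 complex. In the Olfr2- columns 1A, 3A, 3B, 4A and 4B it was at 11.5, 20.7, 63.8, 70.2 and 21.95 CPM. The deeper Olfr2+ columns 2A to 2D and 3A to 3C had 629.6, 601, 554, 858, 507, 669 and 553 CPM, and columns 3D, 4A and 4B had 6.03, 109 and 49.2 CPM. The deeper columns thus shared a narrow range above all others, while column 3D was the lowest of the 15 and column 4A lay above every Olfr2- column. The median of the deeper columns was 27.4 times the Olfr2- median, against 2.24 times for the 3 other Olfr2+ columns. Its near-identical neighbour C1rb was at 0.0591 to 1.28 CPM over the 15 columns, and reads of the pair may not have been told apart by the counting.

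C4b (ENSMUSG00000073418.4, chromosome 17) encodes complement C4, the substrate of C1s whose larger fragment is the scaffold of the classical convertase. Its level was 13.6, 61.3, 71.3, 97.9 and 32.9 CPM in the Olfr2- columns in the same order. It was 1381, 994, 1075, 1617, 722, 414 and 614 CPM in the deeper Olfr2+ columns, and 9.16, 192 and 36.1 CPM in 3D, 4A and 4B. All 4 columns of sample 2 were above the 3 deeper columns of sample 3, and 4A was again above every Olfr2- column. The ratio of medians to the Olfr2- columns was 16.2 in the deeper set and 0.589 in the other Olfr2+ columns. The near-identical gene C4a was at 0.0658 to 5.59 CPM, and some reads may have been assigned to the wrong copy.

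C2 (ENSMUSG00000024371.14, chromosome 17) encodes the protease that completes the classical convertase with C4. The Olfr2- columns had 4.59, 33.3, 17.2, 16.8 and 22.6 CPM. The deeper Olfr2+ columns had 384, 340.5, 607, 239.7, 593, 561 and 262 CPM, and 3D, 4A and 4B had 43.5, 47.0 and 4.02 CPM. Here 3D and 4A lay above every Olfr2- column and 4B below them all. The deeper median was 22.3 times the Olfr2- median and that of the other Olfr2+ columns 2.53 times. C2 and Cfb are neighbours in the genome, so reads of overlapping transcripts of the pair are uncertain.

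Serping1 (ENSMUSG00000023224.12, chromosome 2) encodes the C1 inhibitor, a serpin that inactivates C1r and C1s and thereby restrains the classical route. It was at 90.4, 118, 161, 207 and 146 CPM in the Olfr2- columns. In the deeper Olfr2+ columns it reached 3711, 5629, 3329, 4145, 4567, 5811 and 5774 CPM, against 51.4, 263 and 169.8 CPM in 3D, 4A and 4B. The inhibitor thus had the same pair of levels as the proteases it inactivates, with a deeper median 31.4 times the Olfr2- median and a ratio of 1.17 for the other Olfr2+ columns. Column 3D was the lowest and 4A the highest of the 8 columns below 60 M counts.

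C3 (ENSMUSG00000024164.15, chromosome 17), on which all routes converge, had the highest median CPM of the 9 genes in the deeper columns. It was at 141, 358, 381, 336 and 236 CPM in the Olfr2- columns. The deeper Olfr2+ columns had 7435, 5349, 6653, 6695, 5523, 6094 and 6362 CPM, and 3D, 4A and 4B had 195, 245 and 372 CPM. The 3 Olfr2+ columns below 60 M counts all lay inside the Olfr2- range, and the ratio of medians to the Olfr2- columns was 0.731 there and 19.0 in the deeper set. Within the deeper set the highest column was only 1.39 times the lowest, and 3 of 1938 genes with a mean of at least 100 CPM in that set had a smaller ratio (median 7.13). That ratio was 1.69 for C1ra, 1.75 for Serping1, 2.53 for C2 and 3.90 for C4b.

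The alternative route was represented mainly by properdin. Cfb (ENSMUSG00000090231.10, chromosome 17), the protease of the alternative convertase, had 12, 3, 4, 8 and 17 counts in the Olfr2- columns. It had 15, 1172, 8, 1289, 495, 99 and 836 counts in the deeper Olfr2+ columns and 4, 3 and 0 in 3D, 4A and 4B, where the 0 allows up to 0.100 CPM (3 counts, for counting error only, since PCR copies are not independent molecules). Only 2B, 2D, 3A, 3B and 3C exceeded every Olfr2- column in CPM, and the highest level was 14.3 CPM in 2D. Columns 2A and 2C, which had C3 at 7435 and 6653 CPM, had Cfb at 0.175 and 0.0868 CPM, within the Olfr2- range of 0.0564 to 0.530 CPM.

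Cfp (ENSMUSG00000001128.7, chromosome X) encodes properdin, which is made by leukocytes and stabilises the alternative convertase. Its CPM in the Olfr2- columns were 524, 85.3, 45.8, 263 and 195. In the deeper Olfr2+ columns they were 121, 689.8, 579, 498, 718, 415 and 1209, and in 3D, 4A and 4B they were 458, 239.7 and 539. The Olfr2+ columns of either depth set overlapped the Olfr2- columns, which are all below 60 M counts. Olfr2- column 1A exceeded 3 of the deeper columns. The deeper median was 2.97 times and that of the other Olfr2+ columns 2.35 times the Olfr2- median, so Cfp differed by a similar factor in both.

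The anaphylatoxin receptors followed neither of these patterns. C3ar1 (ENSMUSG00000040552.8, chromosome 6), the receptor for C3a, was at 9.12, 6.35, 7.73, 5.93 and 3.52 CPM in the Olfr2- columns. The deeper Olfr2+ columns had 9.84, 115, 2.09, 186, 183, 82.4 and 246 CPM, and 3D, 4A and 4B had 19.9, 24.2 and 2.21 CPM. Column 2A was just above and 2C below the Olfr2- range, although 2B, which shares the second name of its description with 2A, and 2D, which shares it with 2C, were far above it. C5ar1 (ENSMUSG00000049130.5, chromosome 7), the receptor for C5a, was at 4.36, 45.5, 120.4, 29.97 and 4.49 CPM in the Olfr2- columns. It was at 23.8, 115, 1.46, 92.4, 119, 88.5 and 94.4 CPM in the deeper Olfr2+ columns and at 9.75, 81.4 and 9.64 CPM in 3D, 4A and 4B. Its highest value of the 15 was in an Olfr2- column, 3B, and the lowest was in the deeper Olfr2+ column 2C. The highest deeper column exceeded the lowest 117 times for C3ar1, 81.3 times for C5ar1 and 165 times for Cfb, with 2A and 2C the lowest columns of the deeper set for all 3 genes.

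Per kilobase of annotated exon the order of the genes changed somewhat. In the deeper columns the median level per kilobase was highest for Serping1 at 1964 CPM per kb, then C3 at 1237, Cfp at 333, C1ra at 202, C4b at 175, C2 at 99.3, C5ar1 at 36.0, C3ar1 at 26.7 and Cfb at 2.05 CPM per kb. In the Olfr2- columns the properdin gene led with 112 CPM per kb, followed by C3 at 65.3, Serping1 at 62.6, C5ar1 at 11.7, C4b at 10.8, C1ra at 7.36, C2 at 4.45, C3ar1 at 1.48 and Cfb at 0.0677. The 3 Olfr2+ columns below 60 M counts also had Cfp first, at 264 CPM per kb, ahead of Serping1 at 73.0 and C3 at 47.7. The neighbours C3 and Serping1, and C5ar1 and C4b, differed by less than the spread between columns in the Olfr2- set.

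Sample 3 of Olfr2+ held both depth sets and so gave a contrast within a label and a sample number. The means of columns 3A to 3C were 105 times column 3D for Serping1 (5384 against 51.4 CPM), 95.7 times for C1ra (577 against 6.03), 63.7 times for C4b (584 against 9.16), 30.7 times for C3 (5993 against 195) and 10.8 times for C2 (472 against 43.5). The ratio was 51.0 for Cfb (6.02 against 0.118 CPM), 10.3 for C5ar1, 8.54 for C3ar1 and 1.71 for Cfp. Columns 3C and 3D share the second name in their descriptions (a name without the repeat letter), though each has a library name of its own. With a single column on the shallower side this contrast has no replicate check.

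For the comparison of the labels, counts were summed per numbered sample, giving 3 Olfr2+ against 3 Olfr2- samples, and scaled by TMM. C3 was at 13425, 7460 and 347 CPM in Olfr2+ samples 2, 3 and 4 and at 85.1, 275 and 193 CPM in Olfr2- samples 1, 3 and 4, which is 7077 ± 6547 against 184 ± 95.1 CPM (SD, n = 3 each). Serping1 was at 8720, 6663 and 256 CPM against 54.7, 101 and 119 CPM. In both genes Olfr2+ sample 4, which has no deeper column, was the lowest of its group by far and still above the Olfr2- samples. The means were 1158 ± 1284 against 34.3 ± 22.7 CPM for C4b, 724 ± 633 against 22.4 ± 13.6 for C1ra and 482 ± 403 against 12.0 ± 8.86 for C2. They were 821 ± 341 against 175 ± 134 CPM for Cfp, 132 ± 103 against 4.63 ± 1.23 for C3ar1, 102 ± 39.2 against 23.4 ± 27.9 for C5ar1 and 7.20 ± 7.02 against 0.174 ± 0.0980 for Cfb. The SD of the Olfr2+ samples was close to or above the mean for C3, Serping1, C4b, C1ra, C2 and Cfb.

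All 3 Olfr2+ samples were above all 3 Olfr2- samples for 8 of the 9 genes, the exception being Cfb, whose sample 4 was at 0.0513 CPM, and the same was so of 13.5% of all genes tested. This count includes the deeper columns in samples 2 and 3 and was not repeated without them. On library totals in place of TMM the samples of C3, Cfp and C5ar1 also overlapped, C3 being at 301 CPM in Olfr2+ sample 4 and at 366 CPM in Olfr2- sample 3. TMM factors ran from 1.337 to 1.66 in the Olfr2- samples and from 0.485 to 0.868 in the Olfr2+ samples, and over all genes the median log2 fold change was 0.24 with TMM and -0.87 with library totals. The 9 genes kept a positive log2 fold change under each of the scalings run over all columns, but its size depended on the scaling. All were smaller with library totals than with TMM, such as 3.92 against 5.26 for C3, 0.94 against 2.23 for Cfp and 1.04 against 2.13 for C5ar1.

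The log2 fold changes of Olfr2+ over Olfr2- were 5.83 (SE 0.96) for Serping1, 5.37 (SE 1.91) for Cfb, 5.33 (SE 1.23) for C2, 5.26 (SE 0.93) for C3, 5.08 (SE 1.09) for C4b and 5.02 (SE 1.11) for C1ra. They were 4.83 (SE 1.32) for C3ar1, 2.23 (SE 0.88) for Cfp and 2.13 (SE 1.22) for C5ar1. All 9 genes passed the expression filter. Cfb was scarce in the Olfr2- samples (0.0823 to 0.394 CPM of the library totals) and in Olfr2+ sample 4 (0.0445 CPM). At an adjusted p under 0.05 in edgeR's quasi-likelihood test over all 24362 genes, 5 of the 9 were called higher (C1ra, C4b, C2, Serping1 and C3) and 0 lower, beside 1.12% of all genes called higher. The median over the 9 genes was 5.08 and over all genes 0.24. The genes were chosen with this contrast known, so nothing is read from these counts. Leaving out Olfr2+ sample 2 left 2 of the 9 called, C3 and Serping1, beside 6 of 29390 genes called higher. C4b was then at 3.64, C1ra at 4.15 and C2 at 4.68. Leaving out Olfr2- sample 3 left 3 called, beside 68 of 27211 genes called higher.

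Among the columns below 60 M counts, where 2 Olfr2+ samples stand against 3 Olfr2- samples, the log2 fold changes were smaller. They were 0.64 (SE 1.00) for C3, 0.83 (SE 1.14) for Serping1, 1.18 (SE 1.40) for C4b, 1.23 (SE 1.46) for C1ra and 1.74 (SE 1.44) for C2. For all but C2 the difference was smaller than its standard error. The values were 2.13 (SE 1.42) for C3ar1, 1.54 (SE 0.96) for Cfp, 0.55 (SE 1.53) for C5ar1 and -0.87 (SE 1.76) for Cfb, which changed sign. Of the 9 genes 0 were called, beside 0% of the 29989 genes tested there, of which 3127 had an unadjusted p under 0.05. The median was 1.18 over the 9 genes and -0.43 over all genes. With the depth set as a covariate in a fit of all columns, C3 was at 0.59 (SE 0.53) and Serping1 at 0.78 (SE 0.61). In that fit 0 of the 9 and 0 of 25659 genes were called, and 2610 genes had an unadjusted p under 0.05. No Olfr2- column is in the deeper set, so its label difference also rests on the columns below 60 M counts. The deeper columns add no contrast of the labels to it, and Olfr2+ sample 3 was split by depth set into separate units. It is thus no second estimate from all columns, in spite of its smaller standard errors.

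**Figure D2:**
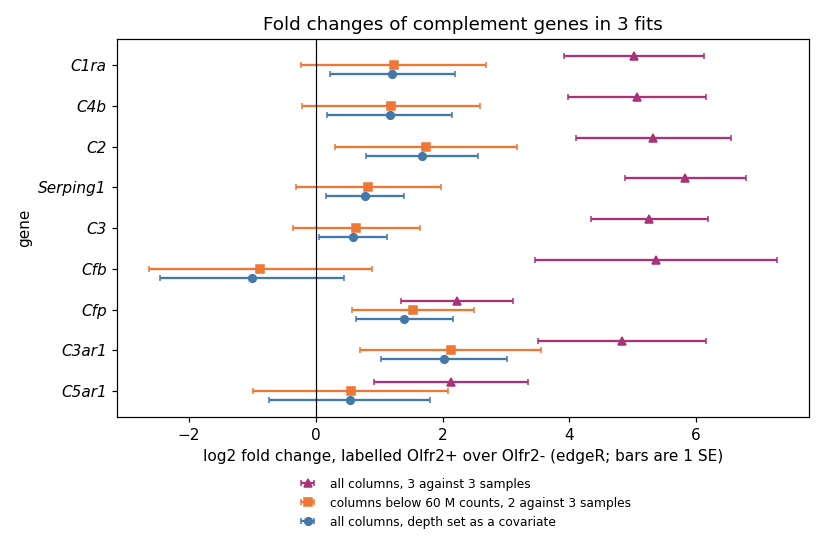
Log2 fold change of Olfr2+ over Olfr2- for the 9 complement genes on the horizontal axis, with bars of 1 standard error, from edgeR fits of all columns (triangles), of those under 60 M counts (squares) and of all columns with the depth set as a covariate (circles). C3 is at 5.26, 0.64 and 0.59 in the 3 fits, and Cfp is at 2.23, 1.54 and 1.40. The label difference of the circles rests on the same columns as that of the squares, since no Olfr2- column is in the deeper set.

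Other genes of the cascade were taken from a list of 51 symbols, of which 50 were in the table. For 22 of them the mean over the columns was under 1 CPM, among them the terminal components C6, C8a, C8b, C8g and C9, the lectin route genes Masp1, Masp2, Mbl1 and Mbl2, and factor D (Cfd). Of 47 that were tested, 6 rose, 0 fell and 41 did not pass, with 27 positive values and a median log2 fold change of 0.77, beside 1.12% of all genes called higher and 112 of 24362 called lower. Described here are 5 of those that rose: C1qb and C1qc, chains of the recognition molecule C1q, the protease gene C1s1, C7 of the membrane attack complex, and clusterin (Clu), which binds terminal complexes. C7 had the largest log2 fold change of these 5, 5.95 (SE 1.23), and C1qc the smallest, 4.30 (SE 1.0996), with edgeR adjusted p of 0.028 and 0.047. C1qb was at 5.18, Clu at 4.94 and C1s1 at 4.60, with edgeR adjusted p of 0.038, 0.040 and 0.040.

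All 5 had their highest median in the deeper columns. C1s1, the partner of C1ra, was at 14.1 to 105 CPM in the Olfr2- columns, 9.93 to 89.0 in the Olfr2+ columns below 60 M counts and 207 to 1014 in the deeper ones. C1qb was at 18.8 to 82.6, 9.04 to 177 and 347 to 1449.9 CPM in the same order. C7 reached 656 CPM in the deeper columns, where its lowest value of 50.3 CPM was inside the range of the other Olfr2+ columns (5.70 to 82.8). Among shallower columns their log2 fold changes were 2.77 for C7, 2.60 for Clu, 1.77 for C1qb, 0.97 for C1qc and 0.70 for C1s1, and 0 of 48 genes tested passed (median 0.11). Clu in the summed Olfr2+ sample 4, which has no deeper column, was at 105 CPM scaled by TMM against 4.01 to 12.2 CPM in the Olfr2- samples. C1s1 and C7 were also above the Olfr2- samples there, at 98.8 and 22.8 CPM. By contrast, C1qb was at 16.0 CPM there, within the Olfr2- range of 11.4 to 41.6, and C1qc at 46.2 CPM, within 16.0 to 48.0. Itgb2, the beta chain of the complement receptors CR3 and CR4 and the other abundant gene of the list, did not pass, at 1.47 (SE 0.83) and an edgeR adjusted p of 0.205. Without Olfr2+ sample 2 none of the list was called, beside 6 of 29390 genes called higher (6371 at an unadjusted p under 0.05 in edgeR). Without Olfr2+ sample 3 or without any Olfr2- sample 1 or 2 were called, beside 68 to 102 of all genes called higher.

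**Figure D3:**
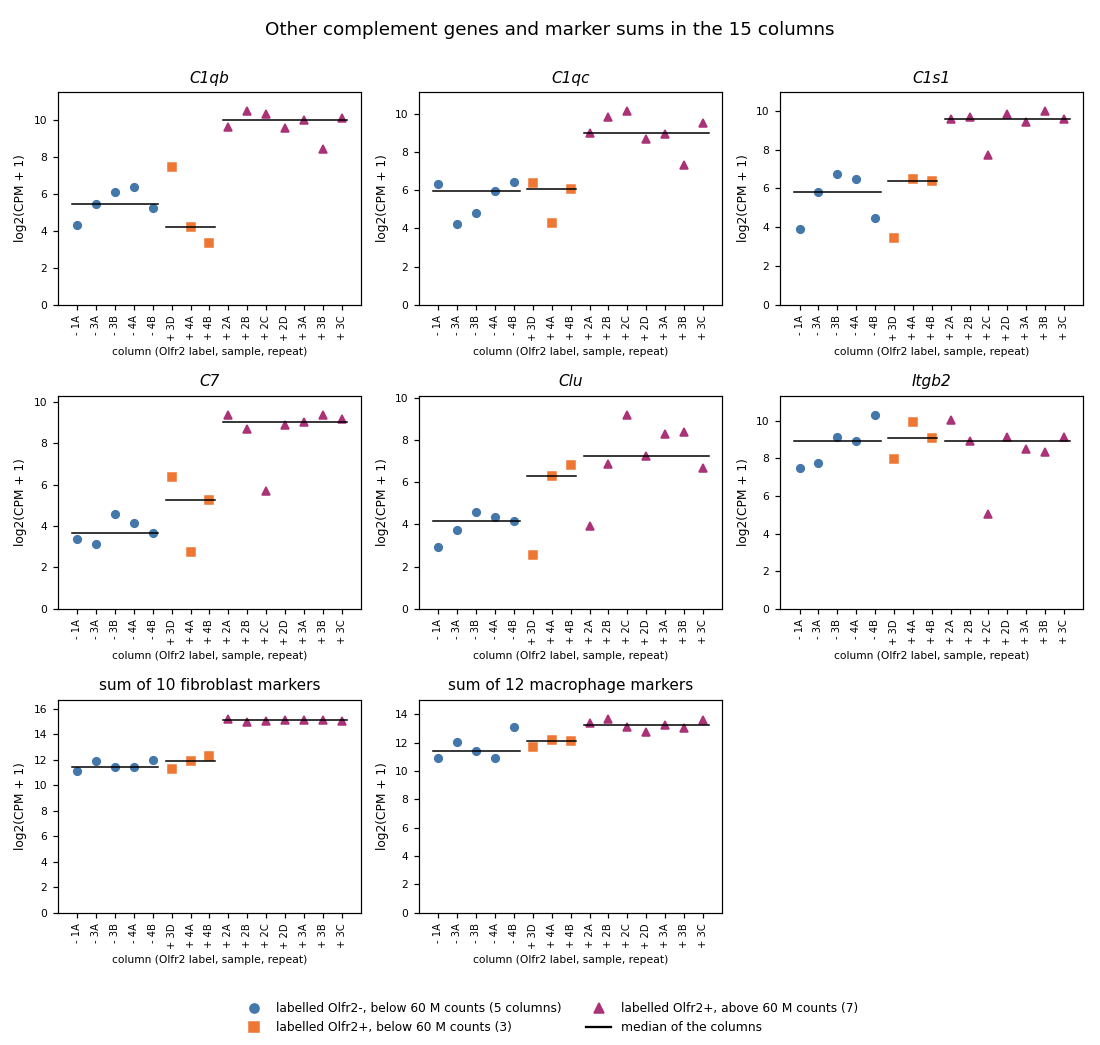
Level, as log2(CPM + 1), of 5 other complement genes that rose, of Itgb2, and of the summed fibroblast and macrophage markers in the 15 columns, with circles for Olfr2- columns, squares for Olfr2+ columns below 60 M counts, triangles for deeper Olfr2+ columns and a line at each median. The fibroblast sum is 31560 to 37501 CPM in the triangles and 2262 to 4909 CPM in all other columns, while Itgb2 overlaps between the sets.

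Summed markers of some other cell types moved with the depth sets as well. Fibroblasts are a source of C3, C4, C1r, C1s and the C1 inhibitor in connective tissue. The sum of 10 fibroblast markers, led by Dcn, Col3a1 and Col1a2, was 2262 to 4011 CPM in the Olfr2- columns, 2500 to 4909 CPM in the Olfr2+ columns below 60 M counts and 31560 to 37501 CPM in the deeper ones, with none of the 10 at 0. Of these markers 9 rose over all columns (median log2 fold change 4.93) and 0 passed without the deeper columns (median 0.81), beside 1.12% and 0% of all genes called higher in the same fits. The sum of 12 macrophage markers was 1894 to 8771, 3262 to 4546 and 6788 to 12977 CPM in the same order, with 2 called higher (Cd14 and Lyz2). Lyz2 was the most abundant of them (mean over the columns 4784 CPM, with Csf1r next at 525). On library totals Cd14 was highest in Olfr2+ sample 4, which has no deeper column (1063 CPM, against 274 and 480 in samples 2 and 3). Scaled by TMM, Lyz2 was at 2068 CPM in that sample, below Olfr2- sample 4 at 2530. Itgam, also of this list, was lower in the deeper columns. The sum of 8 B cell markers ran the other way from the fibroblast sum, at 22936 to 41535, 35313 to 54949 and 213 to 5391 CPM. So did that of 7 monocyte markers, at 1063 to 2858, 2062 to 3219 and 601 to 1150 CPM. Igkc and Ighm made up most of the B cell sum (mean over the columns 15325 and 4748 CPM, with Pax5 next at 41.4). Single markers of both lists did not all follow their sums. None of either list was called, and their median log2 fold changes over the summed samples, 1.57 and 1.54, had the opposite sign to the sums. Hepatocyte markers summed to at most 4.66 CPM in any column. The neutrophil, endothelial, smooth muscle, and adipocyte and mesothelial sums overlapped between the deeper and the Olfr2- columns. The dendritic cell and the T and NK cell sums were lower in the deeper columns than in the Olfr2- columns. Both overlapped the other Olfr2+ columns, at 44.9 to 504 against 330 to 2484 CPM and at 0.582 to 18.4 against 3.45 to 143 CPM. The part of these cell types, of depth and of the protein-coding share in the levels of the complement genes was not tested.

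The genes most like C3 across the 15 columns were found by the root mean square difference of log2(CPM + 1), with each of 8745 genes centred on its own mean. They were Col14a1 at 0.43, Gsn at 0.45, Cxcl12 at 0.49, F3 at 0.52 and Cd81 at 0.52, against a median of 2.75. Col14a1 encodes a collagen of the fibril surface, Gsn the actin-severing protein gelsolin, Cxcl12 a chemokine of stromal cells, F3 tissue factor and Cd81 a tetraspanin. Serping1 came at rank 13 (0.58), C1ra at 68, C4b at 106 and C2 at 153. Farther off were C3ar1 at rank 1502, Cfp at 1843 and C5ar1 at 2787, while Cfb, with a mean under 10 CPM, was not ranked. These columns share depth sets and pooled animals, the ranking was made only with the deeper columns included, and the distances are a description.

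C3ar1 had another set of neighbours, Fam162a at 0.66, Higd1a at 0.68, Fam213b at 0.75, Cnn3 at 0.83 and Tspan31 at 0.86, against a median of 2.47. Of these, Higd1a encodes a mitochondrial inner membrane protein and Cnn3 an actin-binding calponin. C5ar1 was at rank 325 from C3ar1 (1.505), Cfp at 1223 and C3 at 1831. The receptor genes were thus nearer to each other than to C3, both being lower in columns 2A and 2C than in the other deeper columns.

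**Figure D4:**
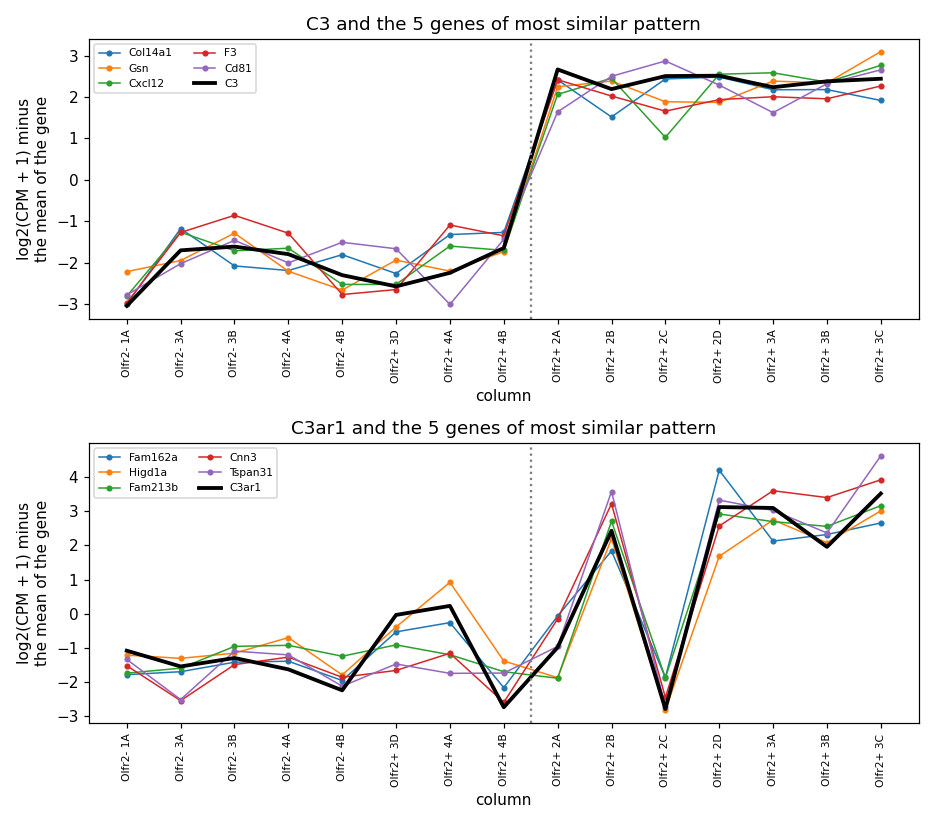
Centred log2(CPM + 1) of C3 with its 5 nearest genes (upper panel) and of C3ar1 with its 5 nearest genes (lower panel) in the 15 columns, the dotted line parting the 8 columns below 60 M counts from the 7 above; lines only join the points of a gene. The C3 group steps up at the dotted line and stays level, whereas the C3ar1 group is low in columns 2A and 2C and high in the other 5 deeper columns.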

How the data were processed

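Low-input RNA-seq by Smart-Seq2 was analysed for 15 columns. Each has its own library name, and a second name in the descriptions, without the repeat letter, takes 8 values. Cells were lysed, their cDNA amplified by PCR and tagmented, per the labels' protocols. The authors deposited a table of raw read counts by gene. DRAGEN, STAR 2.7.1, DESeq2 1.34 and GRCm39 are listed in the submitters' processing notes, without roles. Strand setting and annotation were not given in the sources used here, so overlapping genes and near-identical copies are uncertain. 98.9% of the gene IDs, without version, were in GENCODE M21 (GRCm38), which gave exon lengths and chromosomes. Biotypes were those in the feature names of the deposited counts. Where a symbol named several features (126 symbols), the feature with most counts was used.

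Title numbers were read as samples and letters as repeats, which the labels do not state. No pair of columns agreed within sampling noise (chi-square per degree of freedom at least 610), so none was treated as a duplicate. Counts were summed per sample and tested with edgeR 4.0.16 in R 4.3.3. The settings were the quasi-likelihood F test, TMM, a filter by expression, Benjamini-Hochberg over all genes and an adjusted p under 0.05. Only this edgeR fit was also run on simulated counts, which had the same dispersion for all genes and no separate depth sets. That run therefore does not check the fit against the spread between the depth sets. DESeq2 1.42.0 and limma 3.58.1 (voom), other scalings, filters, units and depth sets, and leaving out each sample served as alternatives. The division at 60 M counts, the members, the lists and the alternatives were chosen with earlier results of these data known. The genes named are the 9 members, the other complement genes that were called or were among the 6 with the highest mean CPM, the 5 genes nearest to C3 and to C3ar1 with a mean of at least 10 CPM, and up to 3 members of a marker list. Genes named outside this rule (the low complement genes, copies and sort markers, and Cd14 and Lyz2) were chosen after their values were seen. The values of 1 further gene that the rule takes are not reported here.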

Additional observations from a re-analysis of the deposited data

How the results depend on the processing

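Calls depended on the scaling, the test, the depth sets and single samples. Against 5 members and 6 other complement genes called higher with edgeR and TMM, library totals gave 3 and 1, beside 80 of 24362 genes. Limma-voom gave 0 and 0 (7537 genes at an unadjusted p under 0.05). The columns below 60 M counts and the depth covariate also gave 0 and 0. In these last 3 fits 0 of all genes were called higher. DESeq2's Wald test called 7 and 11 higher, with 0 members and 1 other gene lower, beside 3893 higher and 2558 lower of all 42769 genes, against 273 and 112 of 24362 in edgeR. DESeq2 size factors in edgeR, no low-count filter, a mean of at least 10 CPM (where Cfb was not tested), single columns and the 8 second names as units called 5 to 6 members and 6 to 9 others. Over all genes these settings called 291 to 885 higher, of 8504 to 42769 tested. Leaving out a sample gave 2 to 7 members, the lowest without Olfr2+ sample 2 and the highest without Olfr2+ sample 4, and 0 to 7 others. Calls over all genes moved likewise, from 6 of 29390 higher without Olfr2+ sample 2 to 973 of 29898 without Olfr2+ sample 4. Sample numbers were not used to pair the samples. The correlation of deviations was 0.013 for number 3 and -0.072 for number 4, against -0.175 to 0.200 between unlike numbers. So few samples cannot exclude a pairing. With the number as a replicate block 0 members and 0 others were called, 2 of 24362 genes were higher, and C3 was at 2.81 (SE 0.72). Numbers 1 and 2 each occur under a single label, so that fit compares the labels within numbers 3 and 4 only. Olfr2+ sample 2, whose columns are all in the deeper set, thus adds nothing to the label difference. The smaller values there are therefore no measure of pairing. Cfb turned to -0.87 in the columns below 60 M counts and to -1.01 with the depth covariate, and the cause was not tested. Of the other named-gene values under these settings, 112 kept their direction and side of the threshold, 30 lost the call and 8 gained it. The few cells per sort and the PCR cycles limit precision in ways the counts do not show.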

Other observations

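Further complement genes, picked out after their values were seen, differed from C3 in level across the column sets or did not pass the test. Itgam, the alpha chain of complement receptor CR3 and also a marker of macrophages here, was at 151 to 518 CPM in the Olfr2- columns, 298 to 367 CPM in the Olfr2+ columns below 60 M counts and 24.7 to 132 CPM in the deeper ones. Over the summed samples it was at 0.15 (SE 0.92) on the log2 scale, with an edgeR adjusted p of 0.911. Itgax, the alpha chain of CR4, was at 42.5 to 226, 8.98 to 191 and 2.73 to 89.1 CPM in the same order. Colec12, a scavenger receptor with a collectin domain, was at 4.11 to 55.9, 3.37 to 80.3 and 75.3 to 279 CPM, and its log2 fold change of 4.48 (SE 1.24) did not pass, with an edgeR adjusted p of 0.057. Cd55, the decay accelerating factor that takes C3 convertases apart, was at 2.80 to 41.2, 9.20 to 170.4 and 2.51 to 277 CPM, with log2 fold changes of 3.92 (SE 1.338) over all columns and 3.55 (SE 1.497) below 60 M counts and edgeR adjusted p of 0.083 and 0.462.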
